A study of Homo sapiens
Mus musculus and Mus musculus and Homo sapiens with 3 samples.

Results

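Dividing and non-cycling progenitors of the motor neuron lineage were compared within human and mouse cultures, using cells that carried transcripts of the progenitor factors SOX2 and OLIG2 and had no UMI (unique molecular identifier, a count of 1 captured transcript) of the neuronal gene STMN2. A progenitor was placed on the dividing side with at least 3 UMIs of TOP2A, the mitotic DNA topoisomerase, and at least 1 UMI of CCNB1, the mitotic cyclin B1. It was placed on the non-cycling side with 0 UMIs of TOP2A, CCNB1, MKI67 (the proliferation antigen Ki-67) and RRM2 (a ribonucleotide reductase subunit of S phase). Every cell needed at least 7000 UMIs, 500 genes and no more than 10% mitochondrial UMIs. This gave 1179 dividing and 514 non-cycling cells, 1693 of the 2738 gated OLIG2 progenitors, of 7712 cells past the filter and of 9115 cells in all. The sides were chosen by these transcripts, so the gate genes and the cell cycle genes that move with them are given as a description, with no test.

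The cells came from pluripotent stem cells taken through motor neuron differentiation as embryoid bodies in suspension, in a study of how long neurogenesis lasts in human and mouse. Every group shares a lentiviral vector (GFP under CAGGS, followed by a 6-base barcode), a papain and DNase I dissociation, and a sort of GFP-positive cells ahead of 10x Genomics 3' libraries. One library mixed human cells of the line NCRM1 (human replicate 1) with mouse C57BL/6 ES cells (mouse replicate 1), and its species were deposited apart. Human replicate 2 was the line RUES1, and mouse replicate 2 was from C57BL/6 ES cells too. Barcodes found in both species' parts of the mixed library, 60 in number, were dropped, and no other libraries shared more than 2. Sampling was every 48 h in human and every 24 h in mouse, and the day of a cell was not given, so a difference between the sides or the species cannot be told apart from a difference in day. Each human library is another cell line, and the labels do not say whether separate cultures gave the mouse libraries. The gene tests compare the sides within each library. Their p-values measure how the difference between the sides varied over these libraries, pooled over both species, and not the spread between cell lines or cultures. Dividing and non-cycling cells numbered 247 and 294 in human replicate 1, 262 and 152 in human replicate 2, 343 and 44 in mouse replicate 1, and 327 and 24 in mouse replicate 2.

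In the ventral spinal cord, OLIG2 marks the progenitors that give rise to motor neurons. Such progenitors divide while Notch signalling keeps the proneural factor NEUROG2 in check, and those that commit raise proneural factors and Notch ligands, switch on inhibitors of cyclin-dependent kinases and leave the cycle to become neurons. D cyclins link growth signals to the entry into S phase and are opposed by the CDK inhibitors of the CIP/KIP and INK4 families. A cell without transcripts of S phase, G2 or mitosis may be in G1 or may have left the cycle, and transcript counts do not separate these states.

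The sides differed in the markers as the gate set them. TOP2A stood at 652 and 601 CPM (counts per 1000000 UMIs) in dividing human cells and at 363 and 332 CPM in dividing mouse cells, against 0 in all non-cycling sums. MKI67, which was used only for the non-cycling side, stood at 249.9 and 309 CPM in dividing human cells and 87.6 and 128 CPM in dividing mouse cells. RRM2 ran the other way between species, with 165 and 71.0 CPM in dividing human cells and 403 and 327 CPM in dividing mouse cells. Median log2 fold changes (dividing over non-cycling) were taken over the lists of S phase and replication genes and of G2, mitosis and cytokinesis genes. They were 1.25 and 2.28 in human and 2.48 and 2.44 in mouse. With genes that had no UMI on a side set to their bound (3 UMIs over the side), the mouse medians were 2.26 and 2.10. Thinned to equal depth before the gate, as described below, the cells gave S phase medians of 0.73 in human and 1.53 in mouse. The S phase median was thus larger in mouse, but this gap cannot be told apart from the choice of the gate. The non-cycling side was chosen by 0 UMIs of RRM2, itself an S phase gene and higher in dividing mouse cells. OLIG2 itself, of which the gate asks 1 UMI, was at 271 and 299 CPM in dividing and 405 and 403 CPM in non-cycling human cells, and at 164 and 183 CPM in dividing and 396 and 342 CPM in non-cycling mouse cells.

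Dividing cells also held more UMIs. Their median was 16565 and 29182 UMIs in human and 25760 and 35816 UMIs in mouse, against 11485 and 16784 in non-cycling human and 12854 and 13064 in non-cycling mouse cells, a ratio between 1.44 and 2.74. Median mitochondrial shares were 3.59% and 5.21% in dividing human, 2.29% and 1.20% in dividing mouse, 3.40% and 5.62% in non-cycling human and 2.23% and 1.44% in non-cycling mouse cells. A gate on single UMIs depends on depth, so each cell was also thinned at random to 7000 UMIs before the gate was applied, and results are called depth-matched where they come from that gate. Of the 700, 501, 371 and 293 cells that passed SOX2, OLIG2 and STMN2 on the thinned counts, it held 106, 128, 64 and 58 dividing and 284, 174, 46 and 37 non-cycling cells, with the human replicates before the mouse ones. Thinning can also remove the UMIs that kept a cell out, so this gate takes in cells that the gate on all UMIs left out. Its non-cycling mouse cells numbered 46 and 37, against 44 and 24 on all UMIs, so its non-cycling side is in part made of other cells. The edge of the gate cut through a continuum: in human replicate 1 the 40 cells with exactly 3 TOP2A UMIs had a median of 3.75% of UMIs in G2 and mitosis genes, and the 32 cells with CCNB1 and 2 TOP2A UMIs had 3.93%. The 97 cells with 1 UMI over the 4 genes of the non-cycling gate had 1.77%, against 1.40% in the non-cycling cells.

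Human cultures held a larger share of non-cycling OLIG2 progenitors than mouse cultures. The non-cycling share of gated progenitors was 33.8% and 24.6% in the human libraries and 6.18% and 4.45% in the mouse libraries, a mean of 29.2% ± 6.53 in human and 5.32% ± 1.22 in mouse (SD, n = 2 each). After depth-matching it was 40.6% and 34.7% in human and 12.4% and 12.6% in mouse. The species did not overlap in either version, and the exact two-sided permutation test gave p = 0.333 in both, the smallest value that 2 libraries against 2 allow. With RRM2 left out of the non-cycling gate, an alternative added after the RRM2 levels had been seen, the depth-matched means were 43.2% in human and 25.1% in mouse.

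The dividing share did not keep an order between species. It was 28.4% and 42.4% in human and 48.2% and 60.7% in mouse on all UMIs, 35.4% ± 9.88 against 54.4% ± 8.83 (SD, n = 2 each; exact permutation p = 0.333). Depth-matched it was 15.1% and 25.5% in human and 17.3% and 19.8% in mouse, with means of 20.3% and 18.5% (exact permutation p = 1), and the libraries of the species overlapped. Neurons (STMN2 of at least 10 UMIs and no SOX2) passed the TOP2A and CCNB1 thresholds in 0 of 252, 2 of 278, 3 of 128 and 4 of 420 cells of human replicate 1, human replicate 2, mouse replicate 1 and mouse replicate 2, at most 2.34%, with median depths of 9965, 16968, 14517 and 23138 UMIs. A count of 0 in 252 cells allows a share of up to 1.19%. Shares also reflect the sort and the days that were pooled.

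**Figure D1:**
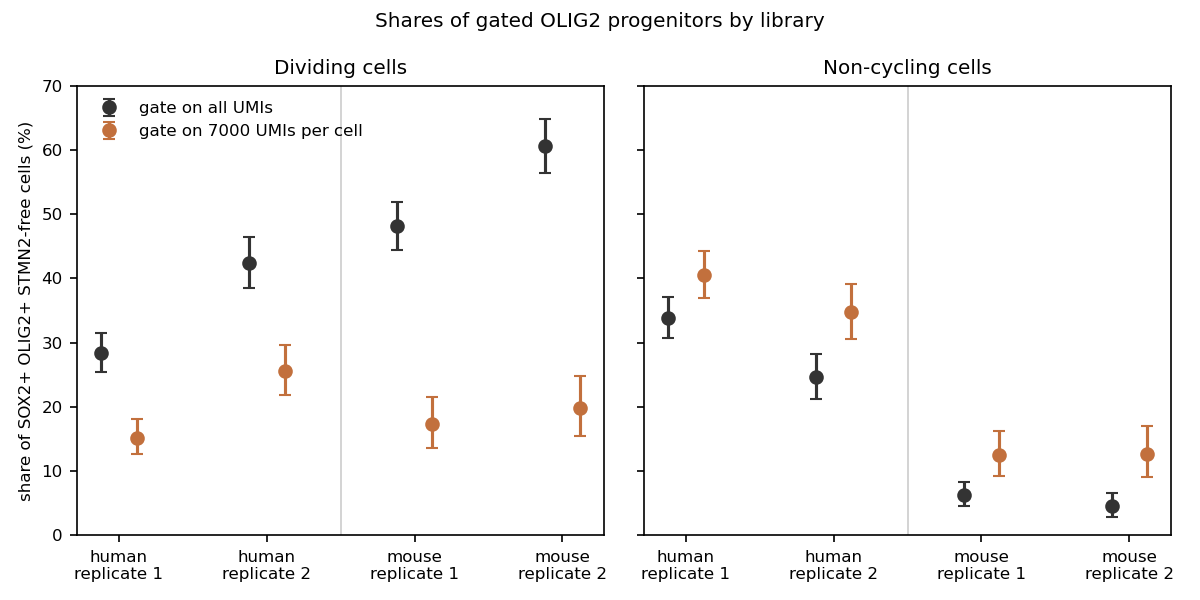
Share of dividing (left panel) and non-cycling (right panel) cells among gated OLIG2 progenitors, in percent, for the human and then the mouse libraries, with the gate on all UMIs in black and on 7000 UMIs per cell in brown; points are libraries and bars are exact 95% Clopper-Pearson intervals, which cover counting error only. On all UMIs the non-cycling share is 24.6% or more in human and 6.18% or less in mouse, while the order of the dividing shares is lost when each cell is thinned to 7000 UMIs.

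Counts were then summed per library and side, with 351071 to 12348967 UMIs in a sum, and tested with edgeR's quasi-likelihood test with the library as a block, with Benjamini-Hochberg adjustment over the 10445 genes tested. Of the 10047 genes outside the cell cycle lists, 565 (5.62%) were higher and 724 (7.21%) lower in dividing human cells, and 940 (9.36%) were higher and 857 (8.53%) lower in dividing mouse cells, at adjusted p under 0.05. These shares are the background for the counts of list members below. Higher in both species were 193 genes, 34.2% of the human and 20.5% of the mouse calls, and lower in both were 227, 31.4% of the human and 26.5% of the mouse calls. Genes called in opposite directions numbered 7 (higher in human, lower in mouse) and 16. With DESeq2's Wald test, which moved the median of all genes tested in mouse to -0.02 against 0.08, 142 (1.41%) were higher and 182 (1.81%) lower in human and 387 (3.85%) were higher and 576 (5.73%) lower in mouse. The counts rest on the libraries being matched and on both human libraries. Without the replicate block they were 8 higher and 21 lower in human and 37 higher and 62 lower in mouse. Without human replicate 1 they were 100 higher and 113 lower in human, and without human replicate 2 they were 71 and 118. Without mouse replicate 2, 552 were higher in mouse, and without mouse replicates 1 and 2 in turn the human counts were 899 and 934 higher and 1090 and 1160 lower. In the fits without a human library, 1 human library remained and its spread was taken to be that of the mouse libraries, and the reverse holds in the fits without a mouse library, so a pass or a miss there is no replicate check within that species. Of the 6778 genes tested outside the cycle lists with the depth-matched gate, 344 (5.08%) were higher and 410 (6.05%) lower in human and 170 (2.51%) higher and 227 (3.35%) lower in mouse. The depth-matched counts of list members below have these shares as their background. Of the 8578 tested in cells with 0 NEUROG2 UMIs on both sides, 104 (1.21%) were higher and 129 (1.5%) lower in human and 568 (6.62%) higher and 522 (6.09%) lower in mouse. These cells numbered 112, 58, 229 and 180 on the dividing and 104, 45, 18 and 16 on the non-cycling side, with the human replicates before the mouse ones. A miss among them is thus a miss on fewer cells. A sum over cells cannot tell a higher level in each cell from a larger share of cells with the transcript.

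Genes of neuronal commitment were lower in dividing progenitors of both species. Of 26 tested genes of the proneural and neuronal commitment list, 20 fell (76.9%) in dividing human and 26 (100%) in dividing mouse cells, and none rose. The shares lower over all genes outside the cycle lists were 7.21% in human and 8.53% in mouse. The list's median log2 fold change was -1.94 in human and -2.72 in mouse, beside -0.05 and 0.05 over all genes outside the cycle lists. The depth-matched gate gave 15 of 22 lower in each species and none higher, with medians of -1.64 in human and -1.11 in mouse, beside -0.04 and -0.06 over all genes outside the cycle lists. The median human minus mouse difference was 0.83 on all UMIs and -0.18 depth-matched, so the order of the species did not hold. Cells with 0 NEUROG2 UMIs gave 8 of 20 lower in human and 15 of 20 in mouse.

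NEUROG2, the proneural factor that drives motor neuron progenitors into differentiation, had 78.9 and 133 CPM in dividing and 247 and 195 CPM in non-cycling human cells. In mouse it had 41.9 and 60.2 CPM in dividing and 319 and 202 CPM in non-cycling mouse cells, and on neither species' libraries did the sides overlap. Its log2 fold change was -1.15 ± 0.21 in human (SE; edgeR adjusted p = 6.35e-05) and -2.17 ± 0.24 in mouse (adjusted p = 3.31e-09), and without human replicate 1 the human value was -0.53 and did not pass. It was -1.76 without human replicate 2, and the mouse value was -1.41 without mouse replicate 1. NEUROD4, a factor downstream of the neurogenins, stood at 10.03 and 46.9 CPM in dividing and 114 and 221 CPM in non-cycling human cells. The mouse values of NEUROD4 were 6.49 and 17.7 CPM in dividing and 175 and 151 CPM in non-cycling cells, and the log2 fold changes were -2.76 ± 0.24 in human (adjusted p = 3.33e-12) and -3.65 ± 0.29 in mouse (adjusted p = 6.79e-13). NHLH1, a transient factor of newborn neurons, had log2 fold changes of -2.67 ± 0.20 in human and -4.54 ± 0.42 in mouse. TAGLN3, a neuronal cytoskeletal gene, had -1.85 ± 0.17 and -2.67 ± 0.19. NEUROG1, the paralogue of NEUROG2, had log2 fold changes of -3.37 ± 0.24 in human and -2.78 ± 0.29 in mouse. In mouse that value rested on replicate 1, with 22.5 and 9.96 CPM in dividing and 264 and 22.8 CPM in non-cycling cells of replicates 1 and 2, and without replicate 1 it was -0.86 and did not pass.

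Transcripts of the motor neuron factors LHX3, ISL1 and MNX1 were higher on the non-cycling side too, although STMN2 was absent by choice. LHX3, a LIM factor of the motor neuron programme, had 3.19 and 7.50 CPM in dividing and 61.1 and 59.9 CPM in non-cycling human cells and 3.41 and 6.24 CPM in dividing and 127 and 96.8 CPM in non-cycling mouse cells. ISL1, its partner, had 0.228 and 0.527 CPM in dividing and 14.3 and 13.5 CPM in non-cycling human cells and 2.20 and 13.5 CPM in dividing and 214 and 293 CPM in non-cycling mouse cells. MNX1, a motor neuron homeodomain factor, had 0.456 and 1.71 CPM in dividing and 7.86 and 20.1 CPM in non-cycling human cells and 1.43 and 2.19 CPM in dividing and 48.00 and 31.3 CPM in non-cycling mouse cells. The log2 fold changes were -3.49 ± 0.27, -5.03 ± 0.57 and -3.67 ± 0.45 in human and -4.34 ± 0.31, -4.98 ± 0.30 and -4.24 ± 0.46 in mouse, each with an adjusted p of 2.68e-08 or less. Depth-matched, LHX3 in mouse was -1.17 and did not pass, while ISL1 was -2.92 and MNX1 -2.58 and both passed. The summed level of the 8 neurogenic markers was 718, 851, 259 and 375 CPM in dividing and 2727, 2884, 2265 and 1379 CPM in non-cycling sums, with the human replicates before the mouse ones. The 9 motor neuron markers summed to 6.84, 13.4, 10.0 and 24.9 CPM in dividing and 86.1, 98.6, 456 and 442 CPM in non-cycling sums, with SLC5A7 at 0 in all non-cycling sums. Among the rest, LHX4 was higher on the non-cycling side in both mouse libraries and at 1.93 CPM or less in the human sums. ISL2, PRPH and SLC18A3 did not keep the same direction across libraries. ISL2 was at 0 in both non-cycling mouse sums, PRPH was at 0 in both non-cycling human sums, and CHAT had no UMI in the human sums. The neuron markers summed to 46.3, 130.3, 126 and 139.7 CPM in dividing and 132.7, 274.5, 919 and 493 CPM in non-cycling sums. GAP43 ran the other way in human replicate 2, with 5.13 CPM in dividing and 1.55 CPM in non-cycling cells. INA did so in mouse replicate 2, with 13.8 and 2.85 CPM. Elsewhere each neuron marker with UMIs in a library was higher on the non-cycling side. TUBB3, a neuronal tubulin among these markers, was at 0 on both sides of human replicate 1 and in all 252 neurons of that library, so its sums lack a gene that held 432 of the 919 CPM in non-cycling cells of mouse replicate 1. The part of such committed cells in the other differences between the sides was not tested.

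**Figure D2:**
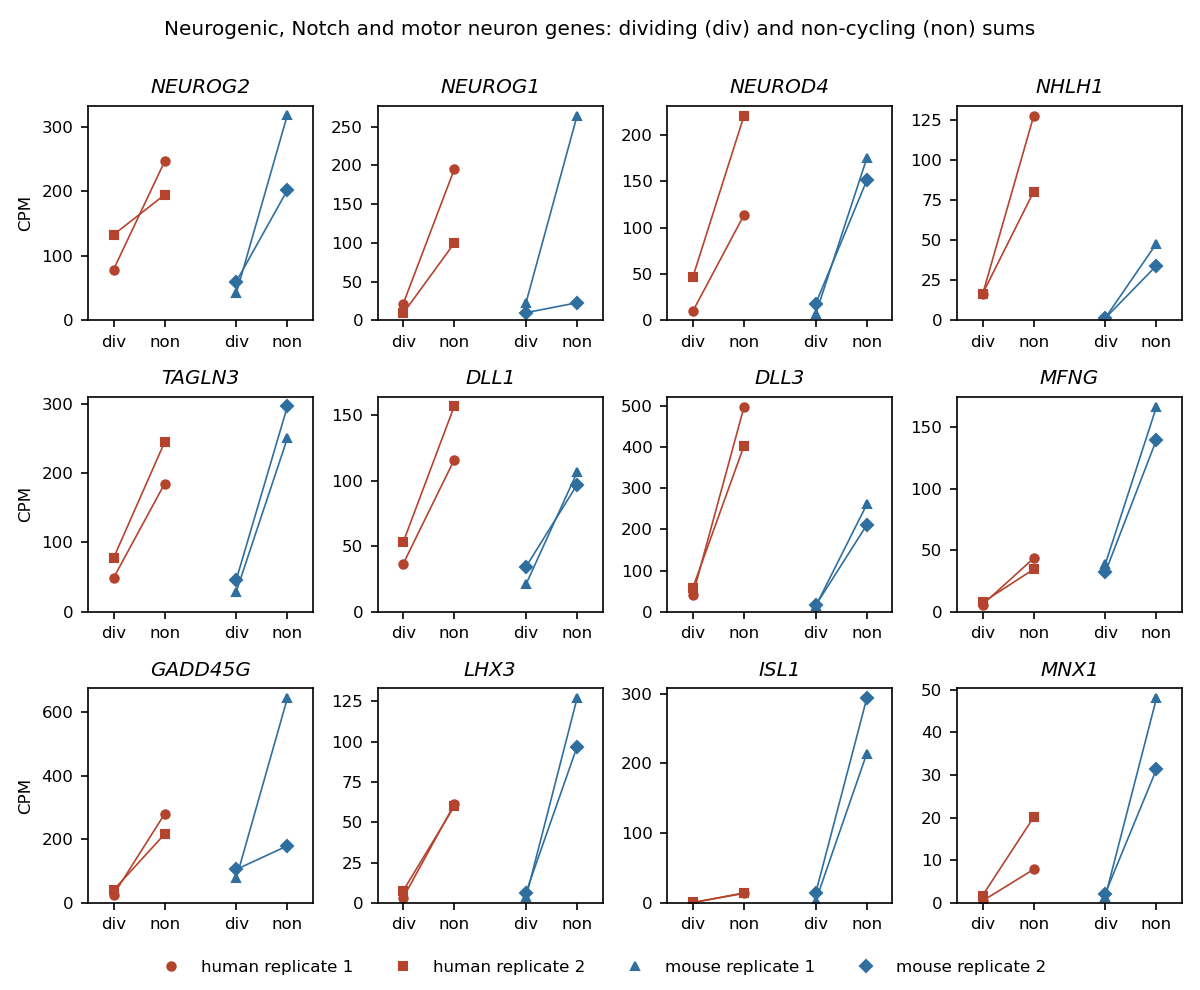
CPM of 12 genes in the summed dividing (div) and non-cycling (non) cells of each library, human libraries left in red and mouse libraries right in blue; lines join the sides of a library and each panel has its own linear axis from 0. In every library each gene stands lower on the dividing side, and the gap is narrow for NEUROG1 and GADD45G in mouse replicate 2.

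Through the Notch pathway, neighbouring progenitors hold each other back from differentiation. Its Delta-like genes DLL1 and DLL3 were lower in dividing cells of both species. The list had 3 of 24 tested genes higher (12.5%) and 7 lower (29.2%) in dividing human cells and 1 higher (4.17%) and 8 lower (33.3%) in dividing mouse cells. Over all genes outside the cycle lists, 5.62% were higher and 7.21% lower in human and 9.36% and 8.53% in mouse. Depth-matched, 4 of 21 were higher and 4 lower in human and 5 lower in mouse. DLL3, a Delta-like protein that acts within the expressing cell, had 40.8 and 58.2 CPM in dividing and 498 and 404 CPM in non-cycling human cells and 12.9 and 14.9 CPM in dividing and 261 and 211 CPM in non-cycling mouse cells. Its log2 fold change was -3.24 ± 0.19 in human (adjusted p = 1.67e-17) and -3.87 ± 0.23 in mouse (adjusted p = 9.19e-17), and it passed in both species in every alternative run. DLL1, the ligand shown to neighbours, had log2 fold changes of -1.67 ± 0.18 and -1.73 ± 0.24. MFNG, a fringe enzyme that modifies Notch receptors, had -2.57 ± 0.24 and -1.90 ± 0.22, and NUMBL, a relative of the Notch antagonist Numb, had -1.93 ± 0.31 and -2.24 ± 0.28, the mouse one -1.38 without mouse replicate 1. Among cells with 0 NEUROG2 UMIs, MFNG and NUMBL did not pass in either species and DLL1 did not pass in mouse (-0.72), while DLL1 in human was -2.44 and passed.

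The target side of Notch did not move as clearly. HES5, a direct Notch target that represses proneural genes, had 594 and 1565 CPM in dividing and 327 and 1230 CPM in non-cycling human cells and 138 and 439.7 CPM in dividing and 90.9 and 632 CPM in non-cycling mouse cells. The libraries of a species lay further apart than the sides. The log2 fold change was 0.54 ± 0.17 in human (adjusted p = 0.0255) and 0.18 ± 0.20 in mouse (adjusted p = 0.607), and the human value did not pass without human replicate 1 (0.37) or 2 (0.74), nor with DESeq2's size factors (0.54). Depth-matched it was 0.61 and passed. HES1, its relative, was 0.14 ± 0.16 in human (adjusted p = 0.644) and 0.61 ± 0.19 in mouse (adjusted p = 0.0156); the mouse value did not pass when any of the 4 libraries was left out, with values between 0.57 and 0.63.

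CCND2, the D cyclin of neural progenitors, separated the sides in mouse and not in human. It had 1561 and 1071 CPM in dividing and 237 and 137 CPM in non-cycling mouse cells, and the cells between the sides had 1174 and 746 CPM. In human it had 98.3 and 264 CPM in dividing, 108 and 316 CPM in the cells between and 121 and 285 CPM in non-cycling cells. Both dividing mouse sums lay above every non-cycling and every human sum, and the human sides stood close together within a library. The log2 fold change was 3.04 ± 0.19 in mouse (adjusted p = 6.31e-16) and -0.26 ± 0.17 in human (adjusted p = 0.338), and the human minus mouse difference was -3.30 ± 0.25 (adjusted p = 5.04e-12). Depth-matched the difference was -1.59, and with RRM2 also left out of the non-cycling gate it was -0.67. Both passed, as did the fits without each library, and the difference was smaller with each of these gates. In progenitors with 0 OLIG2 UMIs the same gate gave CCND2 at 1615 and 1042 CPM in dividing and 528 and 165 CPM in non-cycling mouse cells and at 104.6 and 340.0 CPM and 135 and 655 CPM in human cells. CCND1, the other main D cyclin, was at 636 and 720.4 CPM in dividing and 478 and 585 CPM in non-cycling human cells and 77.9 and 121 CPM in dividing and 87.4 and 162 CPM in non-cycling mouse cells, with adjusted p = 0.213 in human and 0.872 in mouse.

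Among inhibitors of the cycle, the list of D cyclins, CDKs and CDK inhibitors had 3 of 17 tested genes higher (17.6%) and 6 lower (35.3%) in dividing human cells. In dividing mouse cells 5 were higher (29.4%) and 4 lower (23.5%). Over all genes outside the cycle lists, 5.62% were higher and 7.21% lower in human and 9.36% and 8.53% in mouse. CDKN2D, the INK4 inhibitor p19, rose in human, with 53.1 and 67.9 CPM in dividing, 12.8 and 13.8 CPM in the cells between and 5.53 and 7.73 CPM in non-cycling cells. The mouse sums were 39.9 and 33.8 CPM, 19.8 and 21.1 CPM and 25.7 and 25.6 CPM in the same order. The log2 fold changes were 3.13 ± 0.24 in human (adjusted p = 6.78e-14) and 0.75 ± 0.31 in mouse (adjusted p = 0.0855), with a difference of 2.38 ± 0.45 (adjusted p = 4.81e-04). Depth-matched the difference was 2.18 and passed, and the mouse value was 1.44 and passed as well.

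The other inhibitors that changed were lower in dividing cells. CDKN1C, the CIP/KIP inhibitor p57 that accompanies cell cycle exit, had 59.04 and 173 CPM in dividing and 104 and 292 CPM in non-cycling human cells and 72.00 and 95.8 CPM in dividing and 429 and 367 CPM in non-cycling mouse cells. The human libraries lay further apart than their sides, and the mouse sides did not overlap. Its log2 fold change was -0.84 ± 0.17 in human (adjusted p = 2.89e-04) and -2.04 ± 0.18 in mouse (adjusted p = 1.51e-11). Without human replicate 1 the human value was -0.74 and without human replicate 2 it was -0.94, and neither passed. Among cells with 0 NEUROG2 UMIs CDKN1C was -0.31 in human and -0.42 in mouse and did not pass in either. BTG2, an antiproliferative gene of neurogenic divisions, had log2 fold changes of -0.92 ± 0.18 and -2.19 ± 0.19, the human one -0.53 and not past the test without human replicate 1. GADD45G, a growth arrest gene, had 25.99 and 40.1 CPM in dividing and 279.9 and 216 CPM in non-cycling human cells and 77.5 and 105.0 CPM in dividing and 645 and 179.5 CPM in non-cycling mouse cells, with log2 fold changes of -2.95 ± 0.27 and -1.87 ± 0.29; without mouse replicate 1 the mouse value was -0.44 and did not pass, and without mouse replicate 2 it was -2.95. CDKN1B, the inhibitor p27, did not pass in human (0.46 ± 0.19, adjusted p = 0.0991) or mouse (0.22 ± 0.38, adjusted p = 0.753).

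**Figure D3:**
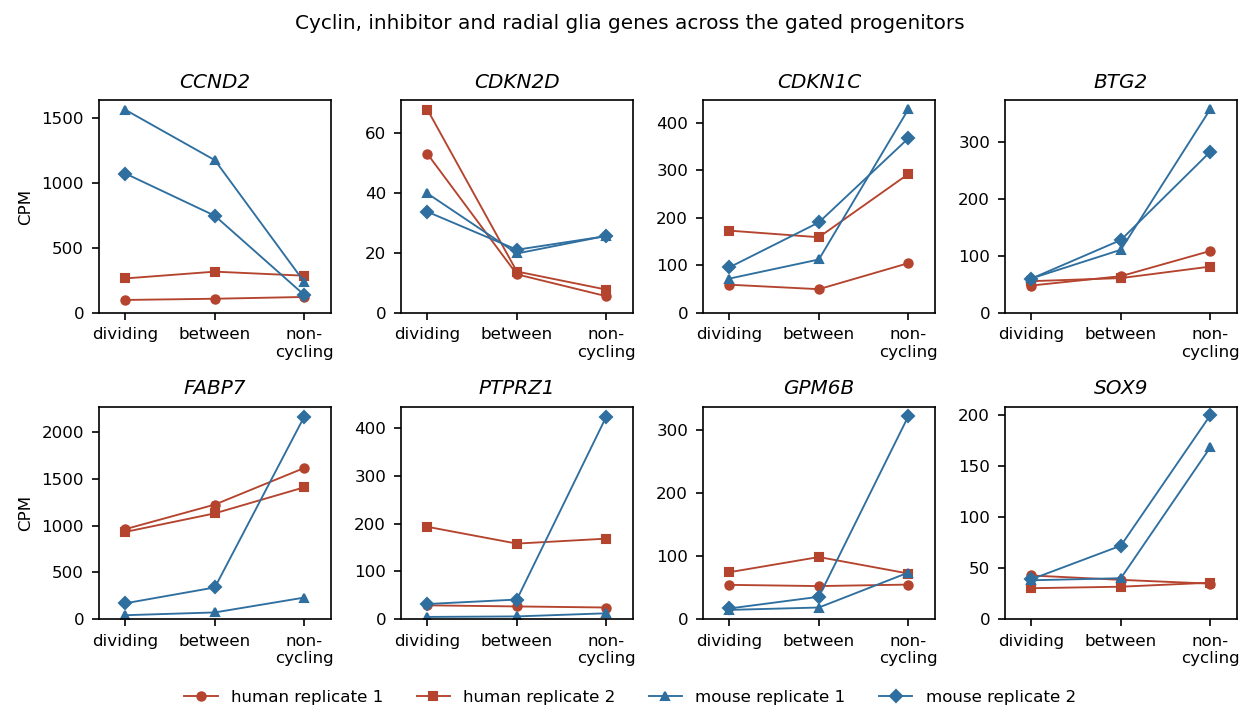
CPM of 8 genes in the dividing cells, the cells between the sides and the non-cycling cells of each library, human in red and mouse in blue; each panel has its own linear axis from 0. CCND2 is highest in dividing mouse cells and level in human, CDKN2D is highest in dividing human cells, and FABP7, PTPRZ1 and GPM6B are highest in the non-cycling cells of mouse replicate 2.

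Radial glia genes marked the non-cycling side in mouse. Of 26 tested genes of the radial glia and neural stem list, 11 fell (42.3%) and 4 rose (15.4%) in dividing mouse cells, against 4 lower (15.4%) and 3 higher (11.5%) in human. Over all genes outside the cycle lists, 8.53% were lower and 9.36% higher in mouse and 7.21% and 5.62% in human. The list's median human minus mouse difference was 0.50, beside -0.10 over all genes outside the cycle lists. Depth-matched, 7 of 24 fell and 1 rose in mouse and 3 fell and 4 rose in human, and the median difference was 0.50. FABP7, the brain lipid-binding protein of radial glia, had 40.9 and 169 CPM in dividing and 229.7 and 2168 CPM in non-cycling mouse cells. Its human levels were 963 and 933 CPM in dividing and 1618 and 1411 CPM in non-cycling cells. The sides did not overlap within a species, but the mouse libraries lay far apart. The log2 fold change of FABP7 was -2.92 ± 0.20 in mouse (adjusted p = 1.35e-14) and -0.73 ± 0.18 in human (adjusted p = 0.00224), with a difference of 2.19 ± 0.26 (adjusted p = 4.02e-07). Depth-matched the difference was 1.25 and it passed in each fit that left out a library. The human value was -0.58 without human replicate 1 and -0.86 without human replicate 2 and did not pass in either.

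GPM6B, a membrane glycoprotein of neural cells, and SOX9, a factor of glial competence, followed the same course in mouse. GPM6B had 14.5 and 16.8 CPM in dividing and 73.7 and 322 CPM in non-cycling mouse cells and SOX9 had 37.9 and 38.95 CPM in dividing and 168 and 199 CPM in non-cycling mouse cells. Neither passed in human, with GPM6B at 54.3 and 74.4 CPM in dividing and 54.7 and 72.3 CPM in non-cycling cells and SOX9 at 42.6 and 30.1 CPM and 34.6 and 35.6 CPM. The human minus mouse differences were 3.17 ± 0.33 (adjusted p = 1.12e-08) and 2.0 ± 0.28 (adjusted p = 5.28e-06). Depth-matched, GPM6B was 1.86 and passed, and SOX9 was 0.91 and did not. PTPRZ1, a receptor phosphatase of radial glia, had 4.40 and 31.5 CPM in dividing and 12 and 424 CPM in non-cycling mouse cells, and SPARCL1, a matrix protein of late radial glia and astrocytes, had 2.53 and 5.99 CPM in dividing and 5.14 and 68.4 CPM in non-cycling mouse cells. These 2 genes rested on mouse replicate 2: their mouse log2 fold changes were -3.04 ± 0.27 and -2.66 ± 0.43, and without that library -1.34 and -0.92, which did not pass. NFIA, the gliogenic factor, was -2.62 ± 0.36 in mouse and -1.70 and not past the test without it. Their human minus mouse differences (3.21, 2.67 and 2.08) passed with all libraries and not without it (1.52, 0.93 and 1.16). The non-cycling side of mouse replicate 2 holds 24 cells. Of 6 glial precursor markers, SOX10 was its only one above 0, at 25.6 CPM, and all 6 were at 0 in both sides of mouse replicate 1. In the other sums the markers summed to 2.51 CPM or less. The late temporal and glial list, which shares SOX9 with the one above, had 9 of 15 tested genes lower (60%) and 1 higher (6.67%) in dividing mouse cells. In human 4 were lower (26.7%) and 1 higher (6.67%). Over all genes outside the cycle lists, 8.53% were lower and 9.36% higher in mouse and 7.21% and 5.62% in human. Depth-matched, 2 were lower in mouse and 1 in human.

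Of the patterning factors of progenitors, several were higher on the dividing side. Of 13 tested ventral domain factors, 6 rose (46.2%) and 1 fell (7.69%) in dividing human cells and 7 rose (53.8%) and 1 fell (7.69%) in dividing mouse cells. Over all genes outside the cycle lists, 5.62% were higher and 7.21% lower in human and 9.36% and 8.53% in mouse. Depth-matched, 3 of 9 were higher in human, and in mouse 2 were higher and 1 lower. The human calls were lost elsewhere: DESeq2 gave 1 of 13 higher in human and 4 higher and 1 lower in mouse, and of 12 tested in cells with 0 NEUROG2 UMIs 0 passed in human (edgeR; 3 at unadjusted p under 0.05), while 4 were higher and 1 lower in mouse. PAX6, a progenitor homeodomain factor, had 69.3 and 59.1 CPM in dividing and 38.1 and 22.04 CPM in non-cycling human cells and 164 and 138 CPM in dividing and 108 and 37.03 CPM in non-cycling mouse cells, with log2 fold changes of 1.04 ± 0.21 (adjusted p = 2.89e-04) and 1.24 ± 0.24 (adjusted p = 1.67e-04). Without human replicate 2 the human value was 0.75 and did not pass, and the mouse value was 2.23 and 0.71 without mouse replicates 1 and 2. IRX3, a homeodomain factor of the domains dorsal to the motor neuron progenitors, had log2 fold changes of 1.80 ± 0.29 in human and 1.41 ± 0.40 in mouse; the mouse value was 2.65 without mouse replicate 1 and did not pass without mouse replicate 2 (0.95) or depth-matched (0.54). NKX6-2, a homeodomain factor of ventral progenitors, had 164 and 54.4 CPM in dividing and 29.1 and 0 CPM in non-cycling mouse cells and 5.70 and 31.7 CPM in dividing and 4.36 and 30.5 CPM in non-cycling human cells. Its mouse log2 fold change was 2.99 ± 0.34 and the human minus mouse difference -2.88 ± 0.45 (adjusted p = 3.51e-05); depth-matched the difference was -1.30 and did not pass. The non-cycling side of mouse replicate 2 held no UMI of NKX6-2, and without that library the mouse value was 2.59.

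The signalling lists gave small counts, beside 5.62% higher and 7.21% lower in human and 9.36% and 8.53% in mouse over all genes outside the cycle lists. The Sonic hedgehog list had 3 of 14 tested genes higher (21.4%) and 2 lower (14.3%) in dividing human cells and 3 higher (21.4%) in dividing mouse cells. Depth-matched, 0 of 8 passed in either species. The WNT list had 3 of 28 higher (10.7%) and 4 lower (14.3%) in human and 2 higher (7.14%) and 3 lower (10.7%) in mouse. Of 17 genes of FGF receptors and ERK feedback, 2 were higher (11.8%) and 1 lower (5.88%) in human and 1 lower (5.88%) in mouse. Of 16 BMP and ID genes, 2 were higher (12.5%) in mouse and 0 passed in human (edgeR, with 3 at unadjusted p under 0.05, and 0 with DESeq2). The genes SFRP2, GLI3 and GAS1 rose in both species. SFRP2, a secreted WNT modulator, had 255 and 651 CPM in dividing and 148 and 238 CPM in non-cycling human cells and 144 and 289.9 CPM in dividing and 80.6 and 56.97 CPM in non-cycling mouse cells. Its log2 fold changes were 1.06 ± 0.19 (adjusted p = 5.34e-05) and 1.70 ± 0.26 (adjusted p = 2.47e-06), and depth-matched they were 1.01 and 1.04, both past the test. Without human replicate 2 the human value was 0.66 and did not pass, and the mouse value was 2.68 and 0.94 without mouse replicates 1 and 2. GLI3 and GAS1, a transcription factor and a co-receptor of Sonic hedgehog signalling, were low, between 12.99 and 78.7 CPM in dividing and at 8.57 CPM or less in non-cycling sums. The non-cycling side of mouse replicate 1 held no UMI of GLI3. GLI3 had log2 fold changes of 0.96 ± 0.30 and 4.36 ± 0.84, and GAS1 of 1.04 ± 0.29 and 3.04 ± 0.43. Neither human value passed without human replicate 1 (1.04 and 1.37) or 2 (0.90 and 0.79), and GAS1 did not pass depth-matched in either species (0.65 and 1.33). ID3, a helix-loop-helix inhibitor of proneural factors, was 0.44 ± 0.17 in human (adjusted p = 0.0803) and 1.25 ± 0.20 in mouse (adjusted p = 3.91e-06). ID1 did not pass in human (0.37 ± 0.17, adjusted p = 0.138) or mouse (0.30 ± 0.22, adjusted p = 0.385).

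Genes that place cells along the body axis were called in both directions in human and lower in mouse. Of 24 tested genes of the HOX list, which also holds CDX factors, 4 fell (16.7%) and 2 rose (8.33%) in dividing human cells. In dividing mouse cells 8 fell (33.3%). The shares lower over all genes outside the cycle lists were 7.21% in human and 8.53% in mouse. The human share that rose was near the 5.62% over all those genes. Depth-matched, 2 fell in human and none passed in mouse. HOXA4 had 12.99 and 6.45 CPM in dividing and 29.7 and 25.1 CPM in non-cycling human cells and 42.98 and 28.4 CPM in dividing and 39.4 and 25.6 CPM in non-cycling mouse cells, so only the human sides stood apart, with a human minus mouse difference of -1.95 ± 0.38 (adjusted p = 6.99e-04) that was -2.46 and passed depth-matched. Without human replicate 2 it was -1.62 and did not pass. HOXB6 was lower in dividing mouse cells (-1.19 ± 0.20) and 0.30 ± 0.21 in human (adjusted p = 0.396); depth-matched the mouse value was -0.17 and did not pass. Of the retinoic acid list, 3 of 15 tested genes fell (20%) and 1 rose (6.67%) in dividing human cells. In dividing mouse cells 6 fell (40%) and 2 rose (13.3%). The shares that fell stood beside the same 7.21% in human and 8.53% in mouse. The shares that rose were near those over all genes outside the cycle lists (5.62% in human and 9.36% in mouse). CRABP2, which carries retinoic acid to the nucleus, was -0.30 ± 0.18 in human (adjusted p = 0.28) and 1.06 ± 0.19 in mouse (adjusted p = 3.12e-05), and depth-matched the mouse value was 0.31 and did not pass. Without mouse replicates 1 and 2 it was 1.62 and 0.54. DHRS3, a retinaldehyde reductase, was -0.10 ± 0.24 in human (adjusted p = 0.841) and -2.0 ± 0.42 in mouse, where 3.63 and 12.6 CPM in dividing cells stood against 1.71 and 91.2 CPM in non-cycling cells and the libraries pointed in opposite directions. Without mouse replicate 2 the mouse value of DHRS3 was 1.17 and did not pass.

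Some early-stage genes, which fall as embryonic progenitors age, were higher on the dividing side. Of 11 tested early-stage RNA regulators, 4 rose (36.4%) and 1 fell (9.09%) in dividing human cells and 7 rose (63.6%) in dividing mouse cells. Over all genes outside the cycle lists, 5.62% were higher and 7.21% lower in human and 9.36% higher in mouse. Depth-matched, 2 rose and 1 fell in human and 2 rose in mouse. With DESeq2, 1 rose in human and 6 in mouse, and among cells with 0 NEUROG2 UMIs 1 rose and 1 fell in human and 6 rose in mouse. LIN28A, which blocks the maturation of let-7 microRNAs, had 48.1 and 62.4 CPM in dividing and 20.4 and 27.4 CPM in non-cycling human cells and 64.6 and 40.2 CPM in dividing and 5.14 and 0 CPM in non-cycling mouse cells. Its log2 fold changes were 1.15 ± 0.20 (adjusted p = 3.41e-05) and 4.31 ± 0.51 (adjusted p = 1.32e-08). The human value without human replicate 2 was 1.12 and did not pass. Depth-matched both passed (0.99 and 3.26), and with RRM2 also left out of the gate the mouse value was 0.67 and did not pass. Its mouse non-cycling sums rest on few UMIs, with none in mouse replicate 2. HMGA2, a chromatin protein of young progenitors, had 0.64 ± 0.17 and 1.14 ± 0.24. The human value was 0.47 and 0.84 without human replicates 1 and 2 and passed in neither. SALL4 and HMGA1 passed in mouse (2.32 ± 0.46 and 1.48 ± 0.26) and not in human (0.25 ± 0.21 and 0.42 ± 0.16), with HMGA1 at 2.41 in mouse without mouse replicate 1; depth-matched the mouse values were 1.70 and 0.53 and did not pass. PTN, the growth factor pleiotrophin, belongs to the radial glia list yet lay on the dividing side, with 28.5 and 41.6 CPM in dividing and 5.24 and 1.55 CPM in non-cycling human cells and 21.4 and 95.3 CPM in dividing and 0 and 5.70 CPM in non-cycling mouse cells. Its log2 fold change was 3.18 ± 0.33 in human (adjusted p = 2.13e-10) and 4.78 ± 0.63 in mouse (adjusted p = 1.42e-07), and depth-matched it was 2.44 and passed in human, and 0.79 and did not in mouse, where the non-cycling side of mouse replicate 1 held no UMI.

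Splicing factors were higher on the dividing side in part of the list. Of 29 tested, 9 rose (31%) in human and 16 rose (55.2%) and 1 fell (3.45%) in mouse. Over all genes outside the cycle lists, 5.62% were higher in human and 9.36% in mouse. Depth-matched, 8 rose in human and 7 in mouse, beside 5.08% and 2.51% higher over all genes outside the cycle lists. Of 21 genes of chaperonins and folding, 6 rose (28.6%) in human and 9 (42.9%) in mouse, with median log2 fold changes of 0.03 and 0.48. Depth-matched, 6 rose and 4 fell in human and 6 rose in mouse, with medians of -0.05 and 0.07, and among cells with 0 NEUROG2 UMIs 1 rose in human and 9 in mouse. NCL, the nucleolar protein nucleolin, had 645 and 1177 CPM in dividing and 416 and 732 CPM in non-cycling human cells and 1329 and 1802 CPM in dividing and 432 and 555 CPM in non-cycling mouse cells, with log2 fold changes of 0.60 ± 0.16 and 1.89 ± 0.17. SRSF2, a splicing factor, had 0.60 ± 0.16 and 1.10 ± 0.17. HMGN1 and CBX1, a nucleosome-binding and a heterochromatin protein, had 0.69 ± 0.16 and 0.67 ± 0.16 in human and 1.07 ± 0.17 and 0.75 ± 0.17 in mouse. PTGES3, a co-chaperone of HSP90, had 0.52 ± 0.16 and 1.12 ± 0.18. None of these 5 human values passed without human replicate 1 (between 0.62 and 0.79) or 2 (between 0.44 and 0.65). The mitochondrial chaperones HSPD1 and HSPE1 rose in mouse (1.67 ± 0.20 and 1.42 ± 0.18) and did not pass in human (0.24 ± 0.18 and 0.37 ± 0.17); depth-matched the mouse values were 0.45, which passed, and 0.35, which did not. Without mouse replicate 2 HSPD1 was 1.08 in mouse. SRSF7 likewise rose in mouse (1.20 ± 0.18) and was 0.27 ± 0.16 in human. The calls of ribosomal protein genes changed with the gate: of 76, 3 were lower (3.95%) in dividing human and 14 higher (18.4%) in dividing mouse cells, with medians of -0.28 and 0.33. The human share lay below the 7.21% lower over all genes outside the cycle lists, and the mouse share above the 9.36% higher. Depth-matched, 49 were lower in human (median -0.27) and none passed in mouse (median -0.03). With that gate 6.05% of all genes outside the cycle lists were lower in human. The human median hardly moved, and the depth-matched gate compares other cells as well as fewer UMIs.

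Some hypoxia and stress transcripts were lower on the dividing side. Of 31 tested genes of glycolysis and hypoxia, 10 fell (32.3%) in human and 10 fell (32.3%) and 1 rose (3.23%) in mouse. Over all genes outside the cycle lists, 7.21% were lower in human and 8.53% lower and 9.36% higher in mouse. Depth-matched, 3 fell and 1 rose in human and 6 fell in mouse. With DESeq2, 1 fell in human and 9 fell and 1 rose in mouse. BNIP3, a hypoxia-induced mitophagy gene, was -0.63 ± 0.17 in human and -1.25 ± 0.20 in mouse. The human value was -0.78 and -0.43 without human replicates 1 and 2 and passed in neither. LDHB, a lactate dehydrogenase subunit, fell in mouse (-1.41 ± 0.20; depth-matched -0.64 and not past the test) and was -0.19 ± 0.16 in human (adjusted p = 0.501). ADM, the hypoxia-induced peptide adrenomedullin, had 0.989 and 0.243 CPM in dividing and 22.3 and 0 CPM in non-cycling mouse cells and 24.2 and 18.3 CPM in dividing and 13.96 and 13.9 CPM in non-cycling human cells, so its mouse value (-3.96 ± 0.71) came from 1 library, and without mouse replicate 1 it was 3.50 and did not pass. Of 22 immediate early and stress genes, which dissociation can induce, 5 fell (22.7%) and 2 rose (9.09%) in human and 7 fell (31.8%) in mouse. Over all genes outside the cycle lists, 7.21% were lower and 5.62% higher in human and 8.53% lower in mouse. The list's median log2 fold changes were -0.10 and -0.50, and with DESeq2 1 fell in human and 6 in mouse. FOS had 99.7 and 30.4 CPM in dividing and 250.3 and 171 CPM in non-cycling mouse cells and 240.1 and 95.2 CPM in dividing and 170.2 and 129 CPM in non-cycling human cells, and the human libraries pointed in opposite directions. JUN and JUND fell in mouse (-1.18 ± 0.24 and -1.11 ± 0.17) and did not pass in human (-0.52 ± 0.20 and -0.32 ± 0.17). The list summed to 1885, 1910, 1169 and 995 CPM in dividing and 1911, 2605, 2599 and 2082 CPM in non-cycling sums, with the human replicates before the mouse ones, so the sides of human replicate 1 stood level. The part of handling in these differences was not tested.

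**Figure D4:**
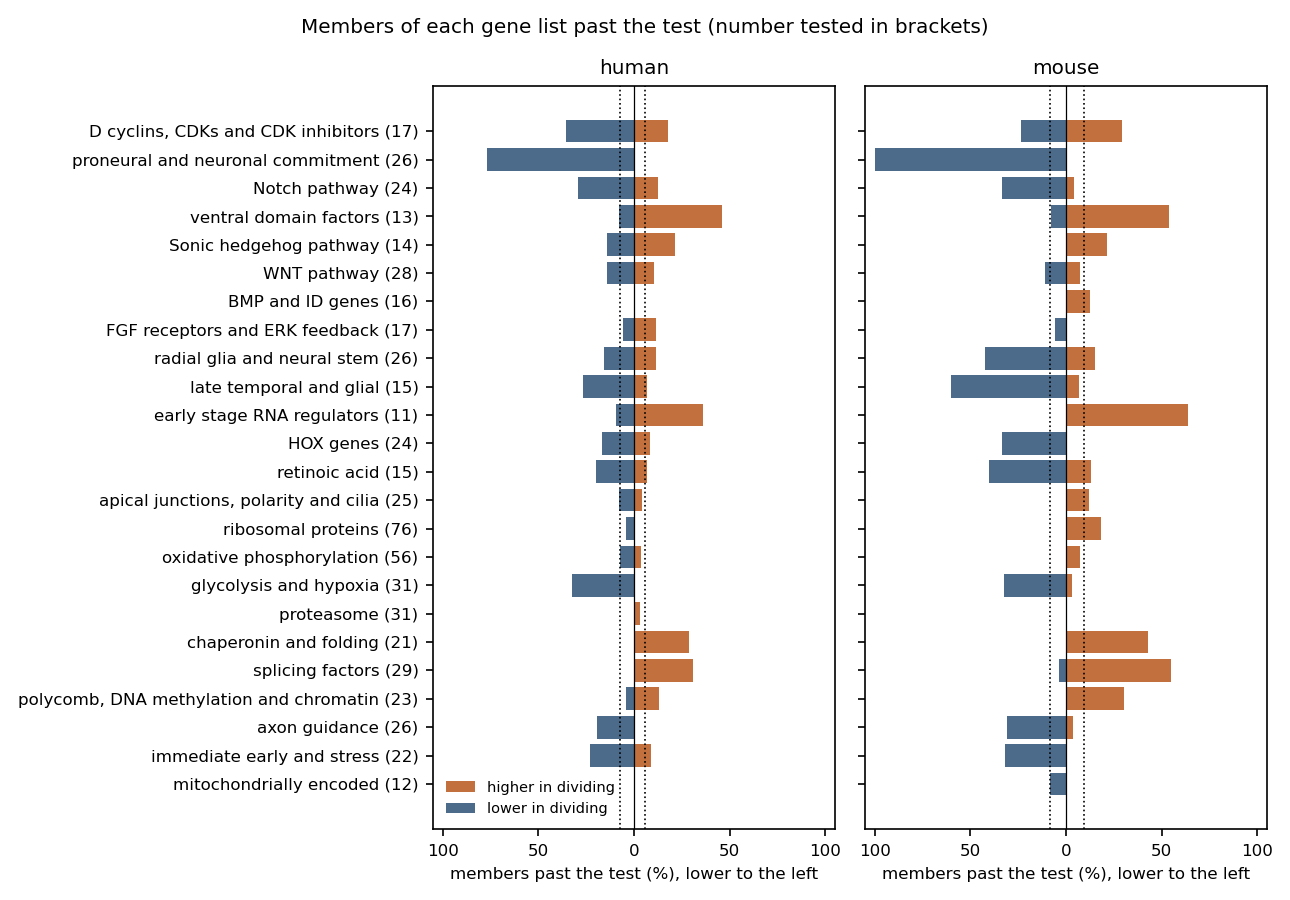
Share of tested members of each gene list past the edgeR test in dividing over non-cycling cells, in percent, to the right where higher and to the left where lower, for human (left panel) and mouse (right panel); dotted lines are the shares over all 10047 genes outside the cycle lists. The proneural list has 20 of 26 members lower in human and 26 of 26 in mouse.

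The largest changes outside the lists, at 20 CPM or more on the higher side, included genes that are themselves known from the cell cycle, so the cycle lists do not hold all of it. RTKN2 had 54.5 and 58.7 CPM in dividing and 3.49 and 3.09 CPM in non-cycling human cells and 14.6 and 11.2 CPM in dividing and 3.43 and 0 CPM in non-cycling mouse cells, with log2 fold changes of 4.01 ± 0.30 (adjusted p = 1.45e-14) and 2.83 ± 0.75 (adjusted p = 0.00441). CHEK2, the DNA damage checkpoint kinase, had 3.69 ± 0.36 and 2.97 ± 0.61; PKMYT1, the kinase that holds CDK1 inactive, had 3.25 ± 0.36 and 3.51 ± 0.72; and MND1, a meiotic recombination gene, had 2.79 ± 0.20 and 2.49 ± 0.49. RNF26, a ubiquitin ligase, had 2.25 ± 0.22 and 2.19 ± 0.36. All passed in both species, and depth-matched PKMYT1 (2.09) and MND1 (1.34) did not pass in mouse. RTKN2 and PKMYT1 had no UMI on the non-cycling side of mouse replicate 2, and RNF26 was 3.86 without mouse replicate 1. In mouse, EME1, a subunit of a DNA structure-specific nuclease, had 567 UMIs over the dividing and 0 over the non-cycling cells and was thus at least 8.24-fold higher, against 3 UMIs over the side. LRR1 was at least 6.13-fold higher by the same floor, with 422 UMIs and 0. In human their log2 fold changes were 1.90 ± 0.35 and 1.40 ± 0.22, and without human replicate 2 1.30 and 1.17, which did not pass. EMC9 and APOLD1 were called in human alone. EMC9, a subunit of the endoplasmic reticulum membrane protein complex, had 75.7 and 67.7 CPM in dividing and 11.1 and 9.67 CPM in non-cycling human cells and 2.53 and 3.56 CPM in dividing and 5.14 and 11.4 CPM in non-cycling mouse cells, with a human minus mouse difference of 3.86 ± 0.81 (adjusted p = 0.00148), which was 2.04 and did not pass depth-matched, nor without mouse replicate 2 (3.64). APOLD1 had 47.9 and 24.6 CPM in dividing and 3.20 and 3.87 CPM in non-cycling human cells and its difference from mouse did not pass (adjusted p = 0.34).

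On the lower side, IL34, TMEM176A and TMEM176B fell in human and had few UMIs in mouse, while RGS16 and CHRNA3 fell in both species. IL34, a ligand of the CSF1 receptor, had 0.684 and 1.05 CPM in dividing and 21.2 and 21.6 CPM in non-cycling human cells, with a log2 fold change of -4.58 ± 0.44 (adjusted p = 3.94e-11), and no UMI in the mouse sums. TMEM176A and TMEM176B, neighbouring genes for membrane channels, had log2 fold changes of -2.97 ± 0.22 and -3.07 ± 0.20 in human, with TMEM176B at 14.8 and 47.7 CPM in dividing and 160.3 and 317 CPM in non-cycling cells and at 6.80 CPM or less in all mouse sums. RGS16, a regulator of G protein signalling, fell in both species, with 32.6 and 122 CPM in dividing and 456 and 712 CPM in non-cycling human cells and 4.95 and 12.6 CPM in dividing and 77.2 and 28.5 CPM in non-cycling mouse cells. Its log2 fold changes were -3.17 ± 0.25 and -2.57 ± 0.41, and without mouse replicate 1 the mouse value was -0.84 and did not pass. CHRNA3, a nicotinic receptor subunit, and SLIT3, a guidance ligand, had -2.96 ± 0.31 and -2.67 ± 0.28 in human. In mouse they had -2.66 ± 0.55 and -1.21 ± 0.42, which without mouse replicate 1 were -1.62 and -1.30 and did not pass; SLIT3 did not pass without mouse replicate 2 (-1.16) or human replicate 1 (-1.19) either. EBF1, a factor of differentiating neurons, had 2.97 and 5.02 CPM in dividing and 68.6 and 94.00 CPM in non-cycling mouse cells and 0.684 and 2.77 CPM in dividing and 2.33 and 3.48 CPM in non-cycling human cells. SLC1A2, the glial glutamate transporter, had 1.65 and 4.21 CPM in dividing and 27.4 and 59.8 CPM in non-cycling mouse cells and 2.51 and 5.40 CPM in dividing and 2.33 and 5.80 CPM in non-cycling human cells. Both passed in mouse (-4.12 ± 0.35 and -3.66 ± 0.43) and neither in human (-0.79 ± 0.56 and -0.07 ± 0.45).

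Set against each other outside the cycle lists, the species differed in the side effect: the human minus mouse difference passed above 0 for 273 genes (2.72%) and below 0 for 326 (3.24%). Of these, 3 and 21 had no UMI on a side of a species, mostly the non-cycling mouse side, so their fitted fold is no measure of size. The genes TIMP1, RMI2 and PIR, at 204, 250 and 153 UMIs on the dividing and 0 on the non-cycling mouse side, were at least 2.96, 3.63 and 2.22 times higher in dividing mouse cells. TIMP1 and PIR were -0.41 ± 0.17 and -0.02 ± 0.23 in human and did not pass. The counts fell to 83 and 89 with DESeq2's Wald test, to 77 and 48 depth-matched, to 82 and 79 without human replicate 1 and to 69 and 88 without human replicate 2, and were 0 and 0 without the replicate block. With DESeq2's size factors the split was 236 above and 182 below 0, while the median over all genes tested was -0.10 by edgeR and 0.01 by DESeq2, and below 0 they were 491 without mouse replicate 1 and 203 without mouse replicate 2. Of the genes described here, CCND2, CDKN2D, FABP7 and GPM6B had a species difference past the test depth-matched and without each library, with the spread pooled over the species in the fits that left 1 out, and with RRM2 also left out of the depth-matched gate GPM6B (1.13) did not pass. For PTPRZ1 and SPARCL1 it was past the test depth-matched and not without mouse replicate 2, and for NEUROG2 (1.02 ± 0.32, adjusted p = 0.0416) it did not pass depth-matched (0.44).

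**Figure D5:**
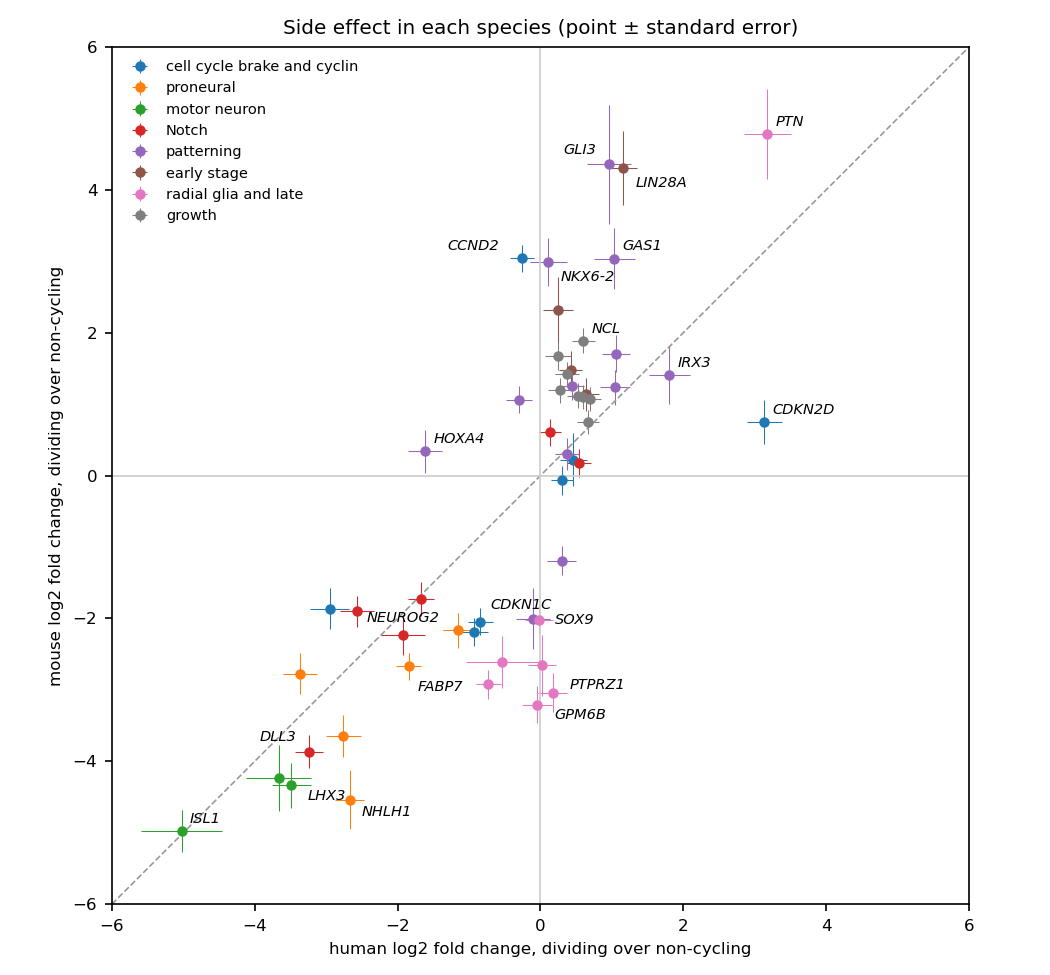
Log2 fold change of dividing over non-cycling cells in human (horizontal) and mouse (vertical) for genes described in the text, coloured by role, with bars of 1 standard error; the dashed line marks equal values, and genes with no UMI on a side are left out. Proneural, Notch and motor neuron genes lie below 0 on both axes, except HES1 and HES5, while CCND2 and NKX6-2 lie high in mouse alone, CDKN2D to the right, and FABP7, PTPRZ1 and GPM6B low in mouse.

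Progenitors with 0 OLIG2 UMIs gave the same comparison for reference, with 1010 dividing and 272 non-cycling cells by the same thresholds. No gene of 10454 tested passed for a difference of the side effect between OLIG2-positive and OLIG2-free progenitors in human or mouse (edgeR; 370 and 439 at unadjusted p under 0.05, and 0 in both with DESeq2's Wald test, with 117 and 192 at unadjusted p under 0.05), and 0.0% were called in each direction. DLL3 was at 28.2 and 8.14 CPM in dividing and 154 and 22.2 CPM in non-cycling OLIG2-free human cells and at 28.4 and 8.62 CPM and 304 and 92.5 CPM in mouse cells. It was lower on the dividing side within each library there as well, while the sides overlapped across the human libraries. CDKN1C in OLIG2-free mouse cells was at 109 and 99.6 CPM in dividing and 1176 and 2263 CPM in non-cycling cells, a wider gap than with OLIG2, and the difference of 1.68 ± 0.30 did not pass (adjusted p = 0.186). The non-cycling OLIG2-free side of mouse replicate 2 held 15 cells, and the count changed with the libraries in the fit: outside the cycle lists, leaving out human replicate 1, human replicate 2, mouse replicate 1 and mouse replicate 2 in turn gave 2, 1, 26 and 21 genes above 0 and 4, 6, 28 and 19 below 0 in human, and 16, 13, 57 and 6 above 0 and 1, 0, 11 and 1 below 0 in mouse.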

How the data were processed

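The deposited files hold raw UMI counts per gene and cell, made by the authors with Cell Ranger 3.1.0 and the builds hg38 and mm10, per the submitters' processing notes; no per-sample column was left unused. The replicates of a species list different gene sets, so the 15472 upper-cased symbols found in all 4 library parts were used. Cells were filtered and gated as given above, and none was removed as a doublet in the main results (Scrublet, in scanpy 1.11.5, marked 10 and 24 human and 5 and 32 mouse cells).

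Counts were summed per library and side, giving 8 sums and 2 residual degrees of freedom, and tested in R 4.3.3 with edgeR 4.0.16 (TMM, filterByExpr by species and side, quasi-likelihood test, Benjamini-Hochberg over all genes tested). The library was a block, since both sides come from the same library: deviations of the libraries from their species mean correlated between sides at 0.822 in human and 0.488 in mouse, over 10445 genes. CPM are per 1000000 UMIs of all genes in a sum. The standard error is the log2 fold change divided by the square root of F. Thinning drew 7000 UMIs per cell at random. Intervals and floors cover counting error only. The step was tested on simulated data.

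The cycle lists hold 474 genes, with the phase lists of Seurat 5.3.0. Genes outside them are named where they are among the 12 largest changes each way per species at 20 CPM or more on the higher side, among the largest species differences, or in a list; not every such gene is described, and those described were picked after their values were seen, and 1 gene of the lists is not reported here. The members, the lists and the rule were chosen with earlier results of these data known. Alternatives were DESeq2 1.42.0, its size factors, no filter, no block, each library left out, thinning, a UMI minimum of 10000, doublets removed, NEUROG2-free cells, a stricter dividing gate, each species alone and, added after seeing the data, gates without RRM2. Promoter sequences were not used here.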

Additional observations from a re-analysis of the deposited data

Results flagged for a closer look

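The results below were picked out because the effect of the side differed between human and mouse in the test of that difference (edgeR, adjusted p under 0.05; human minus mouse, log2 scale). No explanation was weighed. The differences of CCND2, CDKN2D, FABP7 and GPM6B also passed without each library, where the species with 1 library left has no spread of its own, and with cells thinned before the gate, and each of the others failed at least 1 of these fits or had no value in it.

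Among genes of the cycle and of commitment the differences were -3.30 for CCND2, 2.38 for CDKN2D, 1.20 for CDKN1C, 1.26 for BTG2, 1.02 for NEUROG2, 1.87 for NHLH1, 0.83 for TAGLN3 and 3.34 for EBF1. Radial glia and late genes had differences of 2.19 for FABP7, 3.17 for GPM6B, 3.21 for PTPRZ1, 2.67 for SPARCL1, 2.0 for SOX9, 2.08 for NFIA and 3.59 for SLC1A2. Patterning, retinoic acid and HOX genes had -2.88 for NKX6-2, -3.39 for GLI3, -2.0 for GAS1, -1.95 for HOXA4, 1.49 for HOXB6, -1.36 for CRABP2 and 1.90 for DHRS3. Early-stage genes had -3.15 for LIN28A, -1.06 for HMGA1 and -2.06 for SALL4, and genes of RNA processing and folding had -1.29 for NCL, -1.42 for HSPD1, -1.04 for HSPE1 and -0.93 for SRSF7. Stress and metabolic genes had 1.57 for FOS, 0.79 for JUND, 1.22 for LDHB and 4.50 for ADM, and the remaining genes had 3.86 for EMC9, -2.54 for TMEM176A and -3.02 for TMEM176B. Genes with no UMI on the non-cycling mouse side are given by the adjusted p of the difference, which was 0.0369 for EME1, 0.00249 for TIMP1, 0.0159 for RMI2, 0.0218 for PIR and 0.0186 for LRR1.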

How the results depend on the processing

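Counts outside the cycle lists are given as higher and lower in human, then in mouse, then above and below 0 for human minus mouse, beside 565 and 724, 940 and 857, and 273 and 326. DESeq2 gave 142 and 182, 387 and 576, and 83 and 89, and its size factors in edgeR gave 182 below 0. Thinning the cells of the unchanged gate gave 265 and 390, 474 and 395, and 58 and 109. Thinning before the gate gave 344 and 410, 170 and 227, and 77 and 48, and with RRM2 also left out 350 and 402, 66 and 154, and 74 and 29. NEUROG2-free cells gave 104 and 129, 568 and 522, and 132 and 168. A minimum of 10000 UMIs gave 217 below 0, and human alone 909 higher. Leaving out 1 library gave 71 to 934 and 113 to 1160 in human, 552 to 868 and 586 to 721 in mouse, and 69 to 345 and 79 to 491 for the difference. For OLIG2-positive minus OLIG2-free progenitors, with 0 calls, leaving out 1 library gave 1 to 26 and 4 to 28 in human and 6 to 57 and 0 to 11 in mouse, and thinning before the gate 1 and 3 in human and 2 above 0 in mouse. The other alternatives kept these counts within 1.5 times. The human minus mouse share of dividing cells was 1.82 percentage points in both gates after thinning, against -19.01, and -26.0 to -12.03 when a library was left out, and that of non-cycling cells was 19.28 to 28.52. The causes were not tested.

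Without the replicate block the human counts were 8 and 21, the mouse counts 37 and 62 and those of the difference 0 and 0.

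Among values past the test in the main results, the sign turned for 9 mouse values of 8 genes and 11 differences of 9 genes, given next. Values not past it changed sign more often, 49 in human, 27 in mouse and 80 for human minus mouse. These were of 16, 9 and 30 genes. Thinned before the gate, the difference of NHLH1 was -0.26 and that of ADM -1.59, with ADM in mouse at 2.98. With RRM2 also left out, the differences were -1.02 for NHLH1, -0.017 for TAGLN3, 0.15 for GAS1, 0.26 for LIN28A, 0.28 for HMGA1, 0.045 for NCL and 0.059 for HSPE1, and mouse values were -0.024 for IRX3, 0.12 for HOXB6, -0.050 for CRABP2, -0.028 for HMGA1, -0.12 for PTN and -0.0050 for HSPD1. Without mouse replicate 2 DHRS3 was 1.17 in mouse and -1.28 for the difference, and without mouse replicate 1 it was -2.53 and 2.42. Without mouse replicate 1 ADM was 3.50 in mouse and -2.96 for the difference, and without mouse replicate 2 it was -4.36 and 4.90. Of the 78 genes followed, 35 human, 56 mouse and 41 human minus mouse values lost their call in at least 1 alternative. The non-cycling mouse sums, of 44 and 24 cells, limit what can be seen of low genes.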
